A study of Mus musculus with 4 samples.

Results

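The ADAM and ADAMTS genes encode metalloproteases built around a zinc-binding domain and a disintegrin or disintegrin-like domain. The members were the probe sets whose single gene symbol is Adam or Adamts with a number, Adamtsl with a number, or Adamdec1, without Adam8 and Adam12. This gave 80 probe sets of 47 genes, out of 34945 probe sets of 18193 genes with a single symbol, and 26 of the 47 genes had 1 probe set. They were followed in bone marrow of female C57Bl/6J mice aged 12 weeks during a culture that forms osteoclasts, the cells that resorb bone. Day 1 was marrow on the day of extraction, and day 4 was marrow kept for 3 days with 10 nM vitamin D3 and 10% serum. Day 5 and day 7 were cells given 20 ng/ml M-CSF, 40 ng/ml RANKL and 10 nM vitamin D3 after those 3 days, also with 10% serum. Each day was measured on 1 Affymetrix array made from 250 ng of total RNA, and the sources used here do not say whether animals were pooled or whether the 4 samples came from 1 culture. With 1 array per day there is no replicate check and no p-value, and every difference describes these 4 arrays. Both late samples had M-CSF and RANKL, so the action of these factors and of time in culture cannot be told apart.

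ADAM proteins sit in the cell membrane, and the active ones cut the outer part off growth factors, cytokines, adhesion proteins and receptors, a process called shedding. ADAM17 releases TNF and ligands of the EGF receptor, and ADAM10 makes the cut that starts Notch signalling. In osteoclast biology the family is known for shedding of RANKL and of the M-CSF receptor and for parts in the fusion of precursors. ADAMTS proteins are secreted and cut the matrix, above all the proteoglycans aggrecan and versican and the ends of procollagens, while the ADAMTS-like proteins lack the protease domain and bind to matrix fibres. TIMPs and the membrane protein RECK inhibit members of both branches.

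All 4 samples carry the cell type label primary osteoclast. A floor was set at 32.4, the median of all signals, and lower signals were raised to it. Of 11 osteoclast markers, 7 passed this floor on day 1, 10 on day 4 and 11 on each of days 5 and 7. The markers Calcr, Dcstamp, Ocstamp and Oscar were at the floor on day 1, and Calcr was also at the floor on day 4. The day 1 array held high signals of red cell and neutrophil markers, with a summed signal of 25792 for 7 erythroid genes and 99968 for 9 neutrophil genes. The median signal of an array was 38.3, 34.3, 32.3 and 26.2 on days 1, 4, 5 and 7. As measures of technical precision on the log2 scale, the SD over 18 spiked control probe sets was between 0.065 and 0.17 in the comparisons. Probe sets of the same gene had a pooled SD of between 0.26 (day 7 over day 5) and 0.41 (day 4 over day 1). Neither measures variation between cultures.

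Some members with large differences are shown here by their promoters, the 250 bases before and 50 bases after a transcription start. The letters upstream of these genes thus stand beside their values. The sequences come from RefSeq on GRCm38.p6, and 23 of the 47 genes had one. Adamts1 and Adamts9 were higher on day 4, Adam19 was lower on day 7, and Adamtsl4 was lower on day 7 too. Capitals mark matches, on either strand, to an AP-1 site (TGANTCA), a GC box (GGGCGG), the TATA box (TATAAA), the letters CCAAT, or a RUNX site (TGTGGT).
Adamts1 promoter, chr16:85803064-85803363, minus strand: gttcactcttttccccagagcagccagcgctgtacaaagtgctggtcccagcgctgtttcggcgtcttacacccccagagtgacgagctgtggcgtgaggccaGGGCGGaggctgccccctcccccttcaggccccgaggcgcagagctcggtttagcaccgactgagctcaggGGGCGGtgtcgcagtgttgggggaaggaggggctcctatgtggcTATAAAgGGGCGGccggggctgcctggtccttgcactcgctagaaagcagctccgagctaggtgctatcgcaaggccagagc
Adamts9 promoter, chr6:92943485-92943784, minus strand: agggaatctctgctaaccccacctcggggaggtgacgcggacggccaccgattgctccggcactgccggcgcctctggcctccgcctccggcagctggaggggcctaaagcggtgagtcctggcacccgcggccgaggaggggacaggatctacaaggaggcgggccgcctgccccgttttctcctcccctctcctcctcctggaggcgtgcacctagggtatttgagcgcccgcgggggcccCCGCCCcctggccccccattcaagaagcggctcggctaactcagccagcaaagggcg
Adam19 promoter, chr11:46055734-46056033, plus strand: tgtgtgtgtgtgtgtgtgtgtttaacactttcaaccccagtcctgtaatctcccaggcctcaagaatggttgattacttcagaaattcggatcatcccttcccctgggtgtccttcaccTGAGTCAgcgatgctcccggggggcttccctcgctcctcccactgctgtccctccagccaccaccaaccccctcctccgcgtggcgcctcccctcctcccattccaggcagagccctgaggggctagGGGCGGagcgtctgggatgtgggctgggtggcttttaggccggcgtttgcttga
Adamtsl4 promoter, chr3:95687868-95688167, minus strand: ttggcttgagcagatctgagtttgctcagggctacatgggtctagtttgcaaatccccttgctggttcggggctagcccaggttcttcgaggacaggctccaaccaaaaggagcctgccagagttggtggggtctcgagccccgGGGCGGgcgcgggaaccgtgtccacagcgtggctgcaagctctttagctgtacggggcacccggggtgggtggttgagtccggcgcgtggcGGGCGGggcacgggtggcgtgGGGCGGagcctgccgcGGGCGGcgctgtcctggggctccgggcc

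The promoter of Adamts1 held a TATA box match 32 bases before the start and 3 GC box matches, that of Adamts9 a single GC box match 7 bases before the start, and that of Adamtsl4 4 GC box matches. Adam19 has 3 annotated starts. The one printed is the only one of the 3 with an AP-1 match, 131 bases before the start, and the array does not tell which start was used. No matches overlapped in these windows. Adam22 and Adamts12 also had a promoter and a difference of at least 2-fold. Their promoters held no match to any of the patterns searched and are not printed. For scale, an AP-1 match was found in 7.81% of 32817 promoters of this length, a GC box match in 35.6%, a TATA box match in 13.6%, a CCAAT match in 37.4% and a RUNX match in 16.8%. Among the 25 promoters of members the shares were 12% for AP-1, 52% for the GC box, 16% for the TATA box, 32% for CCAAT and 20% for RUNX. A match is a description of the letters and not a binding site.

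Of the 47 members, 24 passed the floor on 1 or more arrays (51.1%, against 68.4% of all 18193 genes), 12 were above it on every array and 23 were at the floor throughout. The number that passed was 18, 20, 17 and 18 on days 1, 4, 5 and 7. Of 7 membrane-bound proteases 6 were above the floor somewhere, as were 5 of 7 ADAMTS genes whose products cut aggrecan or versican and 4 of 5 ADAMTS-like genes. All 3 nervous system members without protease activity were above it too, at signals of at most 96.7. Of 16 genes of testis and epididymis 1 was, Adam4. The highest signal among the 23 genes at the floor was 31.6, of Adamts7, and a level under the floor is not distinguished from background here. These 23 also include Adam28, Adamts3, Adamts8 and Adamts15.

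**Figure D1:**
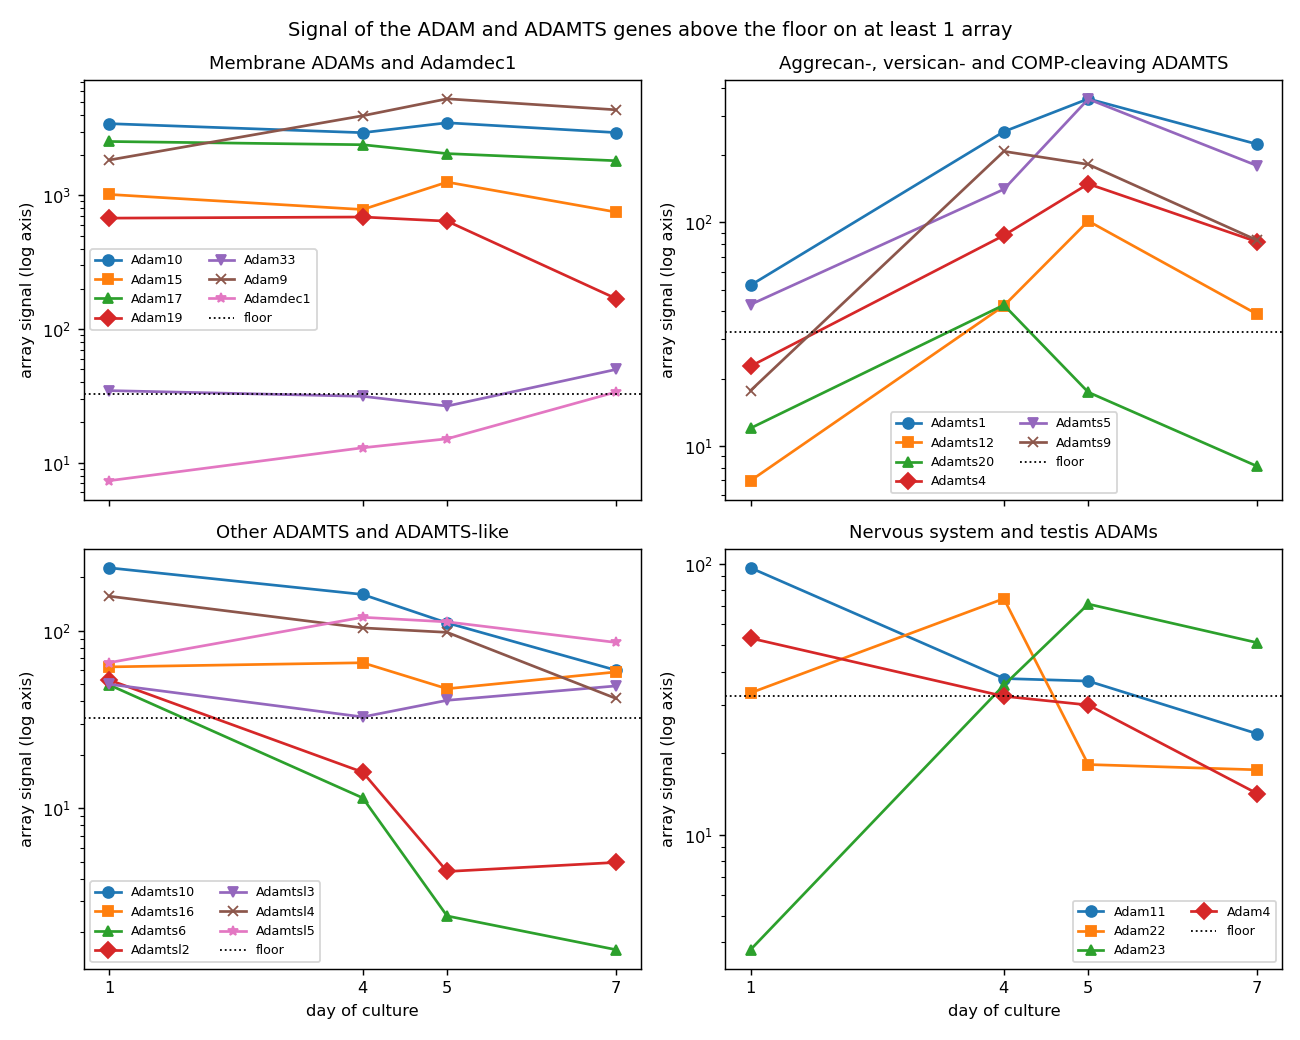
Array signal (log axis) of the 24 ADAM and ADAMTS genes above the floor on at least 1 array, by day of culture, with 1 point per array and a dotted line at the floor of 32.4. Adamts1, Adamts4 and Adamts5 peak on day 5, Adamts9 peaks on day 4, and Adam19 holds between 641 and 689 until day 5 and is at 169 on day 7. Signals of different genes come from different probes and are not comparable in height.

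Among the membrane proteases, the genes for the best known sheddases were present at similar signals on all 4 arrays. Adam10 had signals of 3438, 2943, 3490 and 2948 on days 1, 4, 5 and 7. Adam17 had 2529, 2392, 2053 and 1816, the highest on day 1 and the lowest on day 7. Neither gene reached 2-fold in any of the 4 comparisons. The log2 difference of day 7 over day 4 was 0.003 for Adam10 and -0.40 for Adam17. The other probe sets of Adam17 gave -0.71 and -0.35 for that comparison and were also lowest on day 7. For Adam10 the other probe sets above the floor gave 0.56 and -0.53, so its probe sets had no common direction in that comparison. On day 4 over day 1 the Adam10 probe sets above the floor gave -0.22, -0.90 and -0.18. On day 7 over day 5 they gave -0.24, -0.30 and -0.31.

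Adam9, whose product sheds EGF receptor ligands and binds integrins, was the membrane protease gene that was higher in culture than in fresh marrow. Its signals were 1839, 3941, 5274 and 4365 on days 1, 4, 5 and 7, and the 3 cultured samples all lay above day 1. It was 2.14-fold higher on day 4 than on day 1, with log2 differences of 0.42 (day 5 over day 4) and -0.27 (day 7 over day 5). On the same step, higher signals were also seen for osteoclast markers (8 of 10 measured genes at least 2-fold higher, none lower), macrophage markers (4 of 10, none lower) and stromal markers (17 of 18, none lower). The summed signal of the osteoclast list was 9689.6 on day 1 and 29070.3 on day 4. The part of each cell type in the difference was not tested, and in a mixed sample more cells of a type and more RNA per cell cannot be told apart.

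Adam19, also called meltrin beta, encodes a shedding protease of the neuregulins. Its signals were 675, 689 and 641 on days 1, 4 and 5, and 169 on day 7. The first 3 arrays lay close together and day 7 lay far below them. It was 3.79-fold lower on day 7 than on day 5 and 4.07-fold lower than on day 4, with log2 differences of -1.92 and -2.03. The second probe set of the gene had signals of 94.8, 108, 95.9 and 20.0 on the 4 days and had a log2 difference of -1.56 or less on day 7 over day 5, since day 7 was under the floor. Relative to the median over all genes that passed the floor on both arrays, the difference on day 7 over day 5 was -1.82. The same step held lower signals of neutrophil markers (7 of 9 measured genes at least 2-fold lower), platelet markers (6 of 7) and stromal markers (11 of 18). B cell markers (3 of 5), mast cell, basophil and eosinophil markers (2 of 2) and endothelial markers (2 of 6) were also lower, while 1 of 10 macrophage markers and none of 11 osteoclast markers were lower. Over that step the summed signal was 5845 on day 7 against 37426 on day 5 for the neutrophil list. For the platelet list it was 8315 on day 7 against 14950 on day 5. On the earlier step of day 5 over day 4, 5 of 9 neutrophil, 6 of 7 platelet and 3 of 8 B cell markers were lower. So was 1 of 4 mast cell, basophil and eosinophil markers, but none of 18 stromal and none of 6 endothelial markers. Adam19 had a log2 difference of -0.10 on that earlier step. Its difference on day 4 over day 1 was 0.03. There 17 of 18 stromal markers were higher, and none of 7 platelet and none of 7 endothelial markers reached 2-fold. Lower on day 4 than on day 1 were 5 of 9 neutrophil markers, 6 of 9 B cell markers and 5 of 6 mast cell, basophil and eosinophil markers. Whether any of these cells carried Adam19 was not tested.

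Adam15, whose product carries an integrin-binding motif, had signals of 1016, 783, 1256 and 749.97 on days 1, 4, 5 and 7. Its log2 differences were 0.68 (day 5 over day 4) and -0.74 (day 7 over day 5), both under 2-fold. The representative probe set is one that can match several transcripts. Another probe set, without that design, gave 0.94 and -0.34 for the same steps, so the day 5 array was the highest with both. A further one that can match several transcripts had signals of 22.3, 41.1, 53.0 and 57.6 and was highest on day 7, with a difference of 0.12 against day 5. On day 4 over day 1 the first pair differed in sign, with -0.37 and 0.20. Adam33, a gene linked to asthma in humans, lay near the floor, with signals of 34.6, 31.4, 26.5 and 49.8. Adamdec1, a secreted relative expressed by gut macrophages, was under the floor until day 7, with signals of 7.34, 12.9, 15.1 and 33.8. Adam28, a lymphocyte ADAM, was under the floor on every array and at most 23.1.

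The ADAMTS genes whose products cut aggrecan and versican formed the group with the most differences. Adamts1, which is needed for ovulation in mice, had signals of 52.3, 255, 357 and 224 on days 1, 4, 5 and 7. Adamts5, the main aggrecanase of mouse cartilage, had 42.9, 141, 356 and 179. For both genes day 1 was the lowest array and day 5 the highest. Adamts4, the other classic aggrecanase, had 22.7, 87.4, 149 and 81.9, and Adamts9, a versican-cutting member, had 17.7, 208, 182 and 83.2. These genes were at the floor on day 1 and above it on every later array.

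On day 4 over day 1, Adamts9 was at least 6.41-fold higher, Adamts1 4.87-fold, Adamts5 3.28-fold and Adamts4 at least 2.70-fold. When the probe sets of each gene were averaged, the log2 differences of Adamts9 and Adamts4 were 0.97 and 0.98, just under 2-fold, since other probe sets of these genes were at or near the floor. Adamts4 did not reach 2-fold with the higher floor of 68.9 either, with 0.34. On day 5 over day 4 Adamts5 was 2.53-fold higher. The log2 differences of Adamts4 and Adamts1 were 0.77 and 0.49, and that of Adamts9 was -0.19. The further probe sets of Adamts5 that passed the floor on both arrays gave 1.09 and 0.44 for that step, and the mean over its probe sets gave 0.72, under 2-fold.

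On day 7 over day 5 each of these genes had a negative difference. Adamts9 was 2.19-fold lower, Adamts5 1.99-fold, which is just outside the threshold, Adamts4 1.82-fold and Adamts1 1.60-fold. The call of Adamts9 is lost when arrays are scaled otherwise, with log2 differences of -0.79 after quantile normalization and -0.95 after scaling to the same median, and with its probe sets averaged, at -0.38. Against day 4, day 7 signals of Adamts1, Adamts4 and Adamts5 differed by -0.19, -0.09 and 0.35 on the log2 scale (0.29 for Adamts4 after quantile normalization), while Adamts9 was 2.501-fold lower (-0.97 after quantile normalization and -0.52 with its probe sets averaged). The other members of the group were near or under the floor: Adamts20, known from belted mice that lack pigment cells in a band of skin, had 42.7 on day 4 and at most 17.4 on the other days, and Adamts8 and Adamts15 never passed it.

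Adamts12, whose product cuts cartilage oligomeric matrix protein, was highest on day 5 like Adamts5. Its signals were 6.98, 42.3, 101 and 38.8 on days 1, 4, 5 and 7. It was 2.40-fold higher on day 5 than on day 4 and 2.61-fold lower on day 7 than on day 5. Both calls are lost with the higher floor, at 0.56 and -0.56 on the log2 scale, and with the mean over probe sets, at 0.63 and -0.69, since its second probe set was under the floor on all 4 arrays. Adamts7, of the same substrate, stayed under the floor at 19.3 to 31.6.

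Markers of bone marrow stroma, whose cells lay matrix, had the following values on the same arrays. Of 18 measured stromal and osteoblast markers 17 were at least 2-fold higher on day 4 than on day 1 and none lower, with a median log2 difference of 3.30. On day 5 over day 4, 1 of 18 was higher and none lower (median 0.42). From there to day 7 none was higher and 11 were lower (median -1.26). The summed signal of the 19 listed genes was 3544, 37349.9, 49645 and 31020 on days 1, 4, 5 and 7. The collagen gene Col1a1 had 68.7, 1047, 1703 and 489.8, and the stromal receptor gene Pdgfrb had 205, 1875, 2936 and 1126. Both were lowest on day 1 and highest on day 5. The course was not the same for the whole list. Cxcl12 (177, 4007, 5264 and 5612) and Mgp (203, 5473, 6877 and 7415) were highest on day 7. Of the stromal list Postn was under the floor on all 4 arrays. Osteoclast markers were also higher on day 4 than on day 1, with 8 of 10 higher, none lower and a median of 1.57. On day 5 over day 4, 4 of 11 osteoclast markers were higher and none lower. Of the same 11 markers, 2 were higher and none lower on day 7 than on day 5. The part of stromal cells in the ADAMTS signals was not tested.

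**Figure D2:**
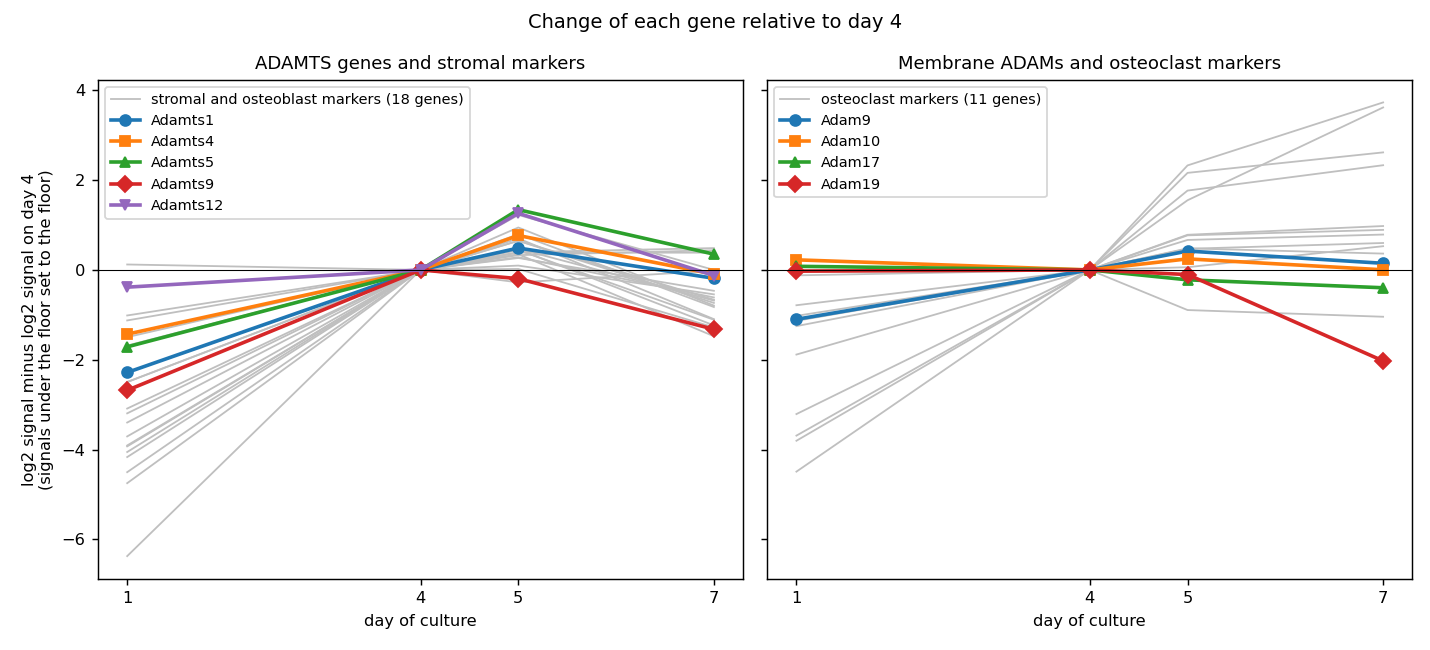
Log2 signal relative to day 4 by day of culture, with signals under the floor set to the floor, for 5 ADAMTS genes beside 18 stromal markers (left, grey) and 4 membrane ADAM genes beside 11 osteoclast markers (right, grey), with 1 array per day. Adamts1, Adamts4, Adamts5 and Adamts9 lie lowest on day 1, by 1.43 to 2.68 below day 4, and Adam19 lies at -2.03 on day 7, below all 11 osteoclast markers.

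Several other secreted members were lower at the end of the culture. Adamts10, whose product works on fibrillin fibres, had signals of 226, 160.4, 111 and 59.995 on days 1, 4, 5 and 7, with each later day lower than the one before. It was 2.67-fold lower on day 7 than on day 4, and with the mean over probe sets the difference was -0.71 on the log2 scale. Adamtsl4, a fibrillin-binding protein mutated in human lens dislocation, had 157, 104, 98.0 and 41.6. Day 7 lay below the other 3 arrays. It was 2.36-fold lower on day 7 than on day 5 and 2.499-fold lower than on day 4. Quantile normalization gave -0.87 and -0.88 on the log2 scale for these, both short of 2-fold. The higher floor gave -0.51 and -0.59. With 16 added in place of a floor the call against day 5 is lost as well, at -0.99. The only probe set of Adamtsl4 can match several transcripts, so leaving out such probe sets gave no value for this gene.

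Adamtsl5 had signals of 66.2, 119, 112 and 86.0 on the 4 days and did not reach 2-fold in any comparison, although its second probe set had a log2 difference of 1.41 or more on day 4 over day 1. Adamtsl3 (49.999, 32.7, 40.6 and 48.9) and Adamts16 (62.6, 66.1, 47.2 and 58.6) stayed between 32.7 and 66.1 on all arrays. Adamtsl2, whose product binds a TGF-beta carrier protein, and Adamts6 were above the floor on day 1 alone, at 52.8 and 49.5. Later signals were at most 15.97 for Adamtsl2 and 11.4 for Adamts6.

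The members without protease activity, which act as adhesion receptors in the nervous system, had low signals and no common course. Adam11 had 96.7, 37.7, 36.9 and 23.6 on days 1, 4, 5 and 7 and was 2.56-fold lower on day 4 than on day 1. Adam22, a receptor for the secreted synaptic protein LGI1, had 33.4, 74.4, 18.2 and 17.4. It stood out on day 4, where it was 2.23-fold higher than on day 1, and both later arrays lay below day 4 by 2.29-fold or more. Adam23 had 3.76, 35.6, 71.0 and 51.2 and was 1.99-fold higher on day 5 than on day 4, just outside the threshold. With the higher floor of 68.9 neither Adam11 nor Adam22 reached 2-fold, with differences of -0.49 for Adam11 and 0.11 for Adam22 on day 4 over day 1. Adam22 also missed it there with the mean over probe sets, at 0.58, and with 16 added in place of a floor. Its later calls, day 5 and day 7 each against day 4, are lost too, at -0.11 with the higher floor and -0.60 with the mean over probe sets. Adam4, of testis, had 53.1 on day 1 and at most 32.4 on later days.

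Counted over the whole family, day 4 over day 1 held the most differences. Of 23 members measured in that comparison, meaning above the floor on at least 1 of both arrays, 6 were at least 2-fold higher (Adam9, Adam22, Adamts1, Adamts4, Adamts5 and Adamts9), against 10.0% of 11981 genes measured. Adam11 was the 1 lower member, against 8.65% of all measured genes. The median log2 difference was 0.03 over these members and 0.06 over all measured genes. A member measured through 1 of both arrays only is counted at its bound.

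On day 5 over day 4, 2 of 20 measured members were higher (Adamts5 and Adamts12, against 2.02% of all measured genes) and 1 was lower (Adam22, against 4.04%), with a median of -0.02 over members and 0.06 over all. On day 7 over day 5, none of 19 was higher (against 0.853%) and 4 were lower (Adam19, Adamts9, Adamts12 and Adamtsl4, against 5.84%). The medians were -0.47 over members and -0.11 over all. Of the 16 members above the floor on both arrays of that step 14 had a negative difference (87.5%, against 64.1% of all genes above it on both). On day 7 over day 4, none of 22 was higher (against 3.12%) and 5 were lower (Adam19, Adam22, Adamts9, Adamts10 and Adamtsl4, against 9.12%), with medians of -0.15 and -0.09.

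Day 7 comparisons depend on how the arrays are scaled. Over all genes called on day 7 over day 5, 12.7% were higher with the deposited values, 31.6% with quantile normalization and 27.2% with each array scaled to the same median. The shares were 25.5%, 43.7% and 39.9% for day 7 over day 4. The median difference over all genes that passed the floor on both arrays of day 7 over day 5 was -0.11, 0.03 and 0.06 in the same order. For day 7 over day 4 it was -0.08, 0.04 and 0.08. No called member changed sign under either scaling, and Adam19 on day 7 over day 5 was at -1.68 or lower under each alternative tried.

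**Figure D3:**
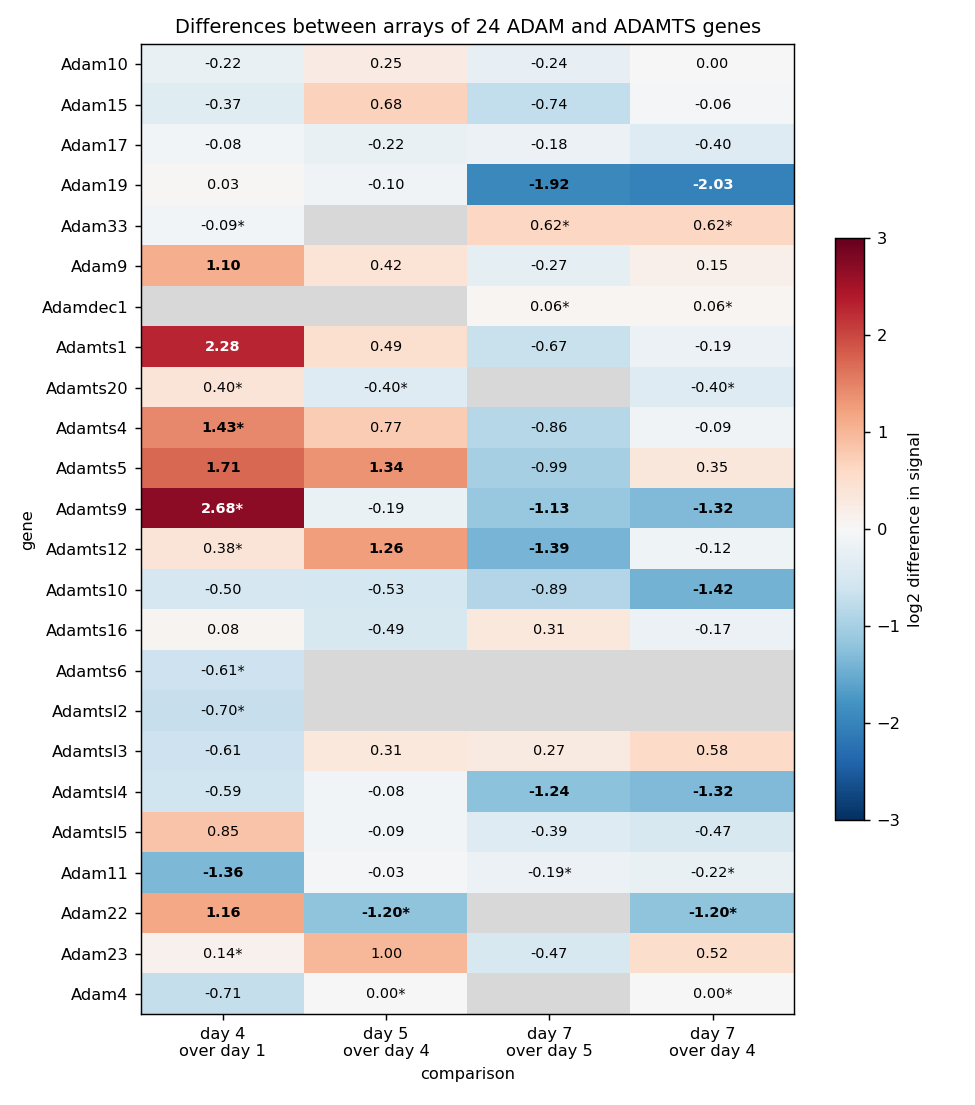
Log2 differences in signal of the 24 ADAM and ADAMTS genes (down) in the 4 comparisons (across), with bold numbers for at least 2-fold, a star for a gene above the floor on 1 of both arrays, whose value is a bound, and grey for genes at the floor on both. The 4 positive values of 1.43 to 2.68 for Adamts1, Adamts4, Adamts5 and Adamts9 on day 4 over day 1 and the pair of values near -2 for Adam19 on day 7 have the largest sizes, and Adam23 at 1.00 is 1.99-fold.

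The called members could be set against their own other probe sets where these were measured. On day 4 over day 1 all 5 such probe sets, of 4 genes, had the same direction and 1 reached 2-fold. On day 5 over day 4 it was 2 of 2 with 1 at 2-fold. On day 7 over day 5 the 1 such probe set had the same direction and reached 2-fold. The step of day 7 over day 4 had 2 of 2, with 1 at 2-fold. These counts leave out other probe sets at the floor on both arrays, which gave no difference to compare. Among those left out were the second probe sets of Adam22, Adamts10 and Adamts12.

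In the RefSeq annotation Adamts1 and Adamts5 are neighbours on chromosome 16, and both had their highest signal on day 5. Adam9 lies on chromosome 8 next to Adam32, which is followed by Adam5, Adam3 and Adam18, and of these 5 genes Adam9 alone was above the floor. Adam7, Adamdec1 and Adam28 adjoin each other on chromosome 14 and were all low. Adamts15 and Adamts8 adjoin on chromosome 9, and both were at the floor on every array.

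Other genes of the pathway were taken as lists. Of 4 measured metalloproteinase inhibitors 1 was at least 2-fold higher on day 4 than on day 1 and 1 was lower. Timp1, a secreted inhibitor, had signals of 441, 3346, 5467 and 2347 on days 1, 4, 5 and 7. It was 7.59-fold higher on day 4 than on day 1 and 2.33-fold lower on day 7 than on day 5. Reck, the membrane inhibitor of ADAM10 and of matrix metalloproteinases, had 597, 157, 139 and 68.5, and was 3.82-fold lower on day 4 than on day 1 and 2.29-fold lower on day 7 than on day 4. Timp3, the TIMP that inhibits ADAM17 and the aggrecanases, had 218, 348, 230.4 and 121, and was 2.89-fold lower on day 7 than on day 4. Timp2 was highest on day 7, at 5777, and was under 2-fold in each comparison. No inhibitor was called on day 5 over day 4.

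Of the 13 listed genes for the maturation and traffic of ADAM10 and ADAM17, 11 were measured on day 4 over day 1, of which 2 were higher and 2 lower. Rhbdf1, one of the iRhom proteins that carry ADAM17 to the surface, was 4.16-fold higher, at 306 on day 4 against 73.6 on day 1. Its relative Rhbdf2 had a log2 difference of -0.25. Tspan33 and Tspan15, tetraspanins that escort ADAM10, were 11.6-fold and 2.11-fold lower, and Tspan17 was 2.22-fold higher. Tspan33 is also known from red cell precursors, and 6 of 7 measured erythroid markers were lower on that array. The part of red cell precursors in the Tspan33 difference was not tested. In later steps Tspan10 was the only gene of the list past 2-fold, lower on day 5 than on day 4 and higher on day 7 than on day 5. The convertase gene Furin, which activates many ADAMs, had 492, 384, 346 and 346.

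Of the 34 listed genes whose products ADAM10 or ADAM17 shed, 29 were measured on day 4 over day 1. Of these 8 were higher and 3 lower, with a median of 0.32 against 0.06 for all measured genes. Over all measured genes 10.0% were higher and 8.65% lower. The stem cell factor gene Kitl was 11.2-fold higher, the cadherin gene Cdh2 at least 9.76-fold, the EGF receptor ligand gene Hbegf 8.22-fold, and Tnfsf11, the gene for RANKL, 7.17-fold. Tnfsf11 had signals of 82.8, 593, 836 and 207 on days 1, 4, 5 and 7, and was 4.05-fold lower on day 7 than on day 5. On day 5 over day 4, 2 of 28 were higher and 6 lower, against 2.02% and 4.04% of all measured genes. The TNF receptor gene Tnfrsf1b was 2.90-fold lower. Vcam1 and Mertk were 2.44-fold and 2.35-fold lower, and the Notch ligand gene Jag1 was 2.24-fold higher. On day 7 over day 4 none was higher and 11 of 28 were lower, against 3.12% and 9.12% of all measured genes. The median was -0.81, against -0.09 for all measured genes. The lower genes included the receptor tyrosine kinase gene Axl at 6.36-fold and the decoy receptor gene Il1r2 at 6.59-fold. The gene for the M-CSF receptor, Csf1r, had 11964, 11068, 11752 and 11651 on the 4 days.

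Of 13 measured genes for ADAMTS substrates and matrix partners, 8 were higher and 2 lower on day 4 than on day 1, with a median of 1.91. Col1a1 was 15.2-fold higher, Col3a1 13.1-fold, the proteoglycan gene Bgn 9.14-fold and Col1a2 8.4995-fold. This list shares 4 genes with the stromal markers. The versican gene Vcan went the other way, with signals of 1016, 236, 322 and 64.6 on days 1, 4, 5 and 7. It was 4.31-fold lower on day 4 than on day 1 and 4.98-fold lower on day 7 than on day 5. The aggrecan gene Acan was at the floor on all 4 arrays, at most 17.3. On day 7 over day 5 none of 14 was higher and 5 were lower, against 0.853% and 5.84% of all measured genes. Among the lower genes were Vcan, Col1a1 at 3.48-fold and the lymphangiogenesis gene Ccbe1 at 3.82-fold.

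**Figure D4:**
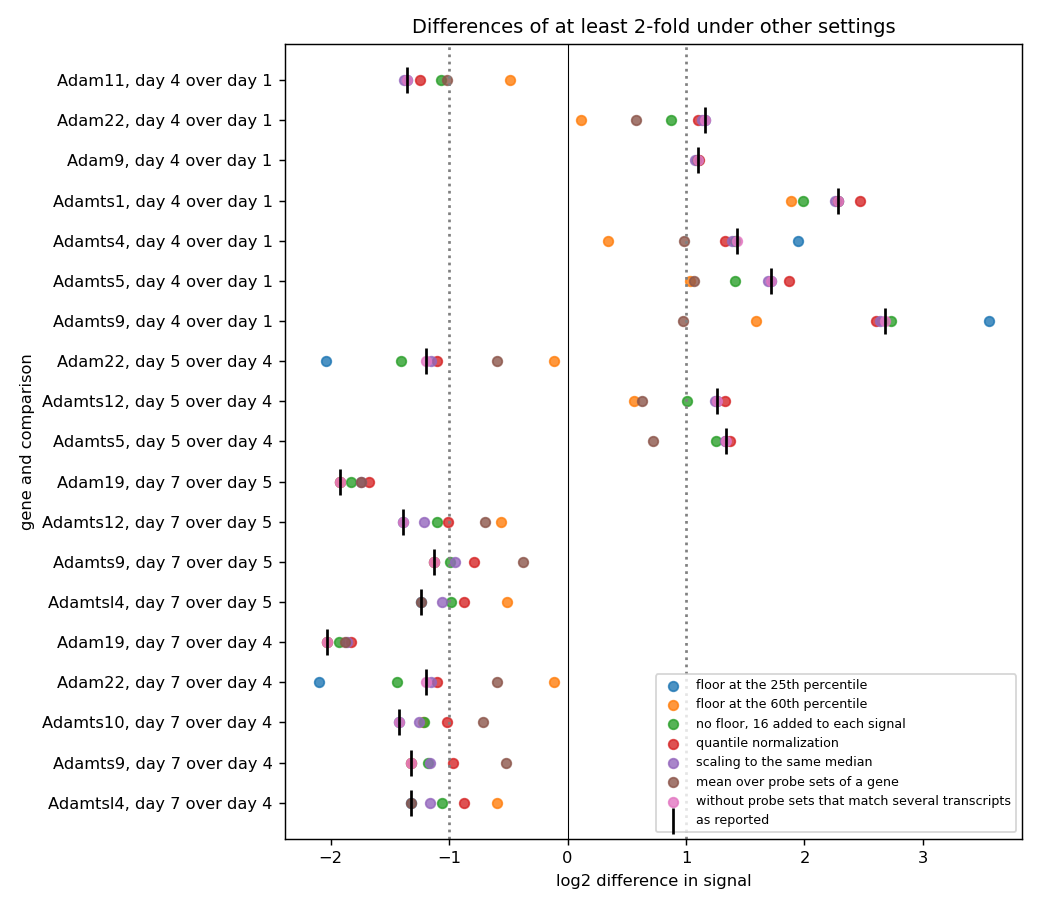
Log2 difference of each member and comparison past 2-fold (down) as reported (black bar) and under other settings (coloured points). Dotted lines mark 2-fold in each direction. There were 7 other settings, or 6 for Adamtsl4, whose only probe set can match several transcripts. Adam9, Adamts1 and Adamts5 on day 4 over day 1 and both differences of Adam19 stay past 2-fold under all of them, and no point crosses 0. Adam9 and Adamts1 have 1 probe set each, so averaging over probe sets could not change them.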

How the data were processed

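The deposited values are linear signal intensity values, 1 column per array, and the submitters' processing notes name GCOS 1.4 and MAS5. Their scaling target was not given in the sources used here. No detection calls were used. Each array was assigned to a day by its title. Of 45101 probe sets, 64 controls were left out, and 34945 had 1 gene symbol in the platform annotation, 932 several and 9160 none; the last 2 kinds were not named, which left out 5 probe sets that name an Adam gene among several. The Entrez numbers of all 80 member probe sets were found in RefSeq (GRCm38.p6) and changed 0 symbols. Signals under the median of all values (32.4) were set to it, and each gene was represented by its probe set of highest mean log2 signal. A gene was called at 2-fold or more, a threshold of size. A gene above the floor on 1 of both arrays has a bound ("at least"). There were 4 comparisons and 7 alternatives. The number of arrays limits the precision. The members and gene lists were chosen with earlier results of these data known. Members described in full were those above the floor with a 2-fold difference in any comparison, plus Adam9, Adam10, Adam15, Adam17, Adam19, Adam28 and Adamdec1; of each list, up to 4 genes per comparison with the largest differences could be named, and genes named beyond these, such as Vcan on day 4 over day 1, Csf1r and Furin, were chosen after their values were seen. The marker lists not described beside a result are those of T and NK cells and of dendritic cells. The lists of B cells, endothelium, and mast cells, basophils and eosinophils are described beside Adam19 only. The calling was tested on simulated data. Scripts ran in Python 3.11.15 with pandas 2.3.3 and numpy 2.4.6, and plots used matplotlib 3.10.9.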

Additional observations from a re-analysis of the deposited data

How the results depend on the processing

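No paired analysis was possible because each day has 1 array, and no array could be left out. Of 444 log2 differences of named members under the 7 alternatives, 386 moved by less than the pooled SD between probe sets, 58 moved by more, and none that was called changed sign. Many of the 386 could not move. A gene with 1 probe set keeps its value when probe sets are averaged. The floor does not touch signals far above it, such as those of Adam10 and Adam17. Adam28, at the floor on every array, stays at 0 under several settings. The 386 are thus no measure of stability. The differences of Adam19 (both day 7 steps) and of Adam9, Adamts1 and Adamts5 (day 4 over day 1) kept their call throughout. Adam9 and Adamts1 have 1 probe set each, so the mean over probe sets was no check on them. Leaving out probe sets that match several transcripts changed none of these values. Counts of called members are small. With the floor at the 25th percentile (8.43), 10 members were higher and 3 lower on day 4 over day 1, against 6 and 1 as reported. That floor gave 2 higher and 3 lower on day 5 over day 4. It gave 1 higher and 6 lower on day 7 over day 5, and 1 higher and 8 lower on day 7 over day 4. With the floor at the 60th percentile (68.9), 4 were higher and 0 lower on day 4 over day 1, and 1 was higher and 0 lower on day 5 over day 4. There 2 were lower on day 7 over day 5, while against day 4 there were 3. These floors change how many genes are measured. With 16 added and no floor, 8 were higher and 2 lower on day 4 over day 1, and 2 were lower on day 7 over day 5. Quantile normalization gave 2 lower on day 7 over day 5, while against day 4 it gave 3. The mean over probe sets gave 4 higher and 1 lower on day 4 over day 1, 0 higher and 0 lower on day 5 over day 4, and 2 lower on day 7 over day 4. It averages in probe sets at the floor. Signals near the floor, such as those of Adam11, Adam22 and Adam23, are limited by background.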

Other observations

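Marker genes of other marrow cells had the following values on the same arrays. On day 4 over day 1, 6 of 9 measured B cell genes, 4 of 5 T and NK cell genes, 3 of 7 dendritic cell genes, none of 7 endothelial genes and 5 of 6 mast cell, basophil and eosinophil genes were at least 2-fold lower, and 2 dendritic cell genes were higher. For day 7 over day 5, none of 1 measured T and NK cell gene and none of 4 dendritic cell genes were lower, and 1 dendritic cell gene was higher. The summed signal of the 8 endothelial genes was 1066, 875, 733 and 358 on days 1, 4, 5 and 7. Of these 8 genes Tie1 was under the floor on all 4 arrays. The gene Adamdec1, under the floor until day 7, had a difference of at least 1.04-fold on day 7 over day 5 as reported and reached 2-fold with the lowest floor, where its log2 difference was 1.16 (1.39 on day 7 over day 4).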
